A study of Macaca mulatta with 4 samples.

Results

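Gene expression in diploid neural progenitor cells (NPCs) from rhesus monkey (Macaca mulatta) was set against diploid embryonic stem cells (ESCs) over all genes, 1 library against 1 library. The genes compared were those that averaged at least 1 FPKM over the diploid ESC and diploid NPC libraries, 14578 of the 23697 genes in the deposited table. FPKM counts sequenced fragments relative to transcript length and to library size. The series concerns genetic screens in haploid NPCs, cells with each chromosome in a single copy. It has 4 samples of embryonic origin differentiated in vitro, labelled diploid ESCs (E3.5), haploid ESCs (E2.5), diploid NPCs (E3.5) and haploid NPCs. The labels name no transgene, treatment or cell line for the 3 groups used here and do not say how many cultures each library holds. The haploid ESC library, from cells that share the stem cell state but not the ploidy or the labelled day, is given beside every named gene, and haploid NPCs were not analysed here. The question is how the progenitors and the stem cells differ in the gene classes that handle transport, signal reception, matrix, adhesion and transcription.

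ESCs grow as tight epithelial colonies, take up nutrients at a high rate and are held in their state by FGF and Nodal signalling. NPCs are polarised cells of the neural tube that keep dividing and give rise to neurons and glia. The passage from the first state to the second is known to exchange surface receptors, junction proteins and matrix along with transcription factors. Roles given below are those known in human and mouse.

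Each group had 1 library, so the differences below have no replicate check and were not tested. A gene was counted as higher or lower when the ratio of FPKM + 1 between the libraries was at least 4-fold, a log2 ratio of 2. The added 1 makes differences look smaller than they are for weakly expressed genes. By this rule 1198 genes, or 8.22% of those compared, were higher in NPCs and 885, or 6.07%, were lower. The median log2 ratio over all genes compared was 0.05, and 56.7% of genes were within 2-fold. These shares and this median are the background for every class below, except where haploid ESCs are named as the reference. For that reference, genes that averaged at least 1 FPKM over the haploid ESC and diploid NPC libraries were compared, 14442 in all. Of these, 11.61% were higher in NPCs and 7.92% lower, with a median of 0.04. Bulk libraries cannot tell fewer cells of a type apart from less RNA per cell.

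**Figure D1:**
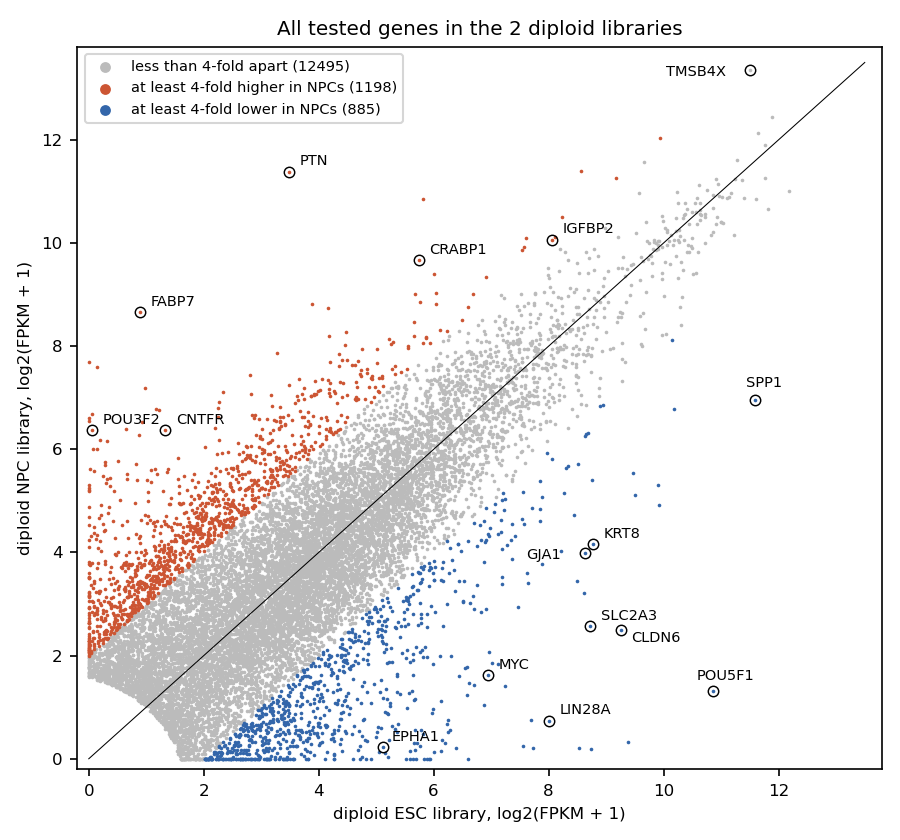
Log2 of FPKM + 1 in the diploid NPC library (y axis) against the diploid ESC library (x axis), 1 point per gene. Genes at least 4-fold higher in NPCs are red, genes at least 4-fold lower are blue. PTN and FABP7 lie far above the diagonal, POU5F1, SPP1 and CLDN6 far below it.

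The labels were checked against the markers of the cell types. POU5F1, the core pluripotency factor, stood at 1859 FPKM in the diploid ESC library, 1332 in the haploid ESC library and 1.5 in the NPC library, and the RNA binding protein LIN28A at 257, 281 and 0.67 FPKM in the same order. FABP7, the brain lipid binding protein of radial glia, stood at 0.86, 6 and 403 FPKM and the secreted growth factor PTN (pleiotrophin) at 10.2, 32.9 and 2667 FPKM. All 4 markers therefore went with the labels. Of other lists, mesendoderm and endoderm markers summed to 1010 FPKM in the diploid ESC library, 80.9 in the haploid ESC library and 30.9 in the NPC library, with 7 of 8 lower in NPCs. Neuron markers summed to 62.6, 44.7 and 299.9 FPKM, with 3 of 8 higher, 1 lower and 245 FPKM as the largest value in NPCs. What part neurons have in the NPC values was not tested. Astrocyte markers summed to 2.93, 1.75 and 43.2 FPKM, with 1 of 5 higher. Neural crest markers summed to 79.65, 26.06 and 6.27 FPKM, with 1 of 6 higher and 2 lower. Fibroblast markers summed to 453, 584 and 153 FPKM, with 1 of 8 higher and 1 lower, and endothelial markers to 14.6, 17.8 and 5.06 FPKM. Blood and microglia markers summed to 3.17, 2.51 and 11.8 FPKM, and in NPCs nearly all of that was CD68, at 11.8 FPKM. The 3 libraries held 13721 (diploid ESC), 13147 (haploid ESC) and 14022 (diploid NPC) genes at 1 FPKM or more. The spacing of low values put the depth of the NPC library at 78.7% of that of the diploid ESC library, and the depth of the haploid ESC library at 95.6%. By this estimate a low value is read most coarsely in NPCs. Genes at 0 FPKM were most numerous in haploid ESCs, at 3071, beside 2607 in NPCs and 2202 in diploid ESCs.

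Many transporters of nutrients stood lower in NPCs than in ESCs. Of 222 solute carriers (SLC genes), 28, or 12.6%, were at least 4-fold lower, beside 6.07% of all genes, and 17, or 7.66%, were higher, beside 8.22%. Their median log2 ratio was -0.29. The lower carriers sat in a few families. Amino acid carriers had 12 of 36 members lower and 5 higher, with a median of -1.01, and their summed level was 892 FPKM in the diploid ESC library, 754 in the haploid ESC library and 438 in the NPC library. Against haploid ESCs 7 were lower and 5 higher. Monocarboxylate carriers had 3 of 10 lower and 1 higher, with a median of -1.17. Metal carriers had 8 of 25 lower and 1 higher, with a median of -0.24.

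SLC2A3, the neuronal type glucose transporter GLUT3, was the carrier with the lowest ratio. It stood at 423 FPKM in the diploid ESC library, 203 in the haploid ESC library and 4.96 in the NPC library, a log2 ratio of -6.15. The widely expressed glucose transporter SLC2A1 (GLUT1), named after its values were seen, stood at 127, 90.2 and 85.1 FPKM, within 2-fold. The other 12 sugar carriers had no member past 4-fold, and SLC50A1, a sugar carrier of the SWEET family, was the most abundant of them in NPCs at 44.7, 18.6 and 173 FPKM.

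The amino acid carriers lower in NPCs included carriers of neutral and of cationic amino acids. The glutamine and alanine carrier SLC38A2 stood at 78.2 FPKM in the diploid ESC library, 102 in the haploid ESC library and 3 in the NPC library, and its relative SLC38A1 at 50.8, 57.8 and 3.5 FPKM. SLC38A5 stood at 39.7, 28.2 and 4.8 FPKM and the arginine and lysine carrier SLC7A3 at 37.9, 9.93 and 2.65 FPKM. For all 4, both ESC libraries lay above the NPC library, although SLC7A3 in haploid ESCs was nearer to NPCs. Both chains of the heterodimer that imports large neutral amino acids stood lower. Its light chain SLC7A5, named after its values were seen, stood at 117, 146 and 17.5 FPKM and its heavy chain SLC3A2, the most abundant member in diploid ESCs, at 183, 124 and 61.1 FPKM. The heavy chain did not reach 4-fold, at -1.57. SLC1A3, the glial glutamate transporter GLAST, went the other way, at 2.96, 7.93 and 19.6 FPKM, as did the lysosomal cationic amino acid exporter PQLC2 at 14.3, 9.75 and 69.2 FPKM.

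Lactate and metal carriers also had members that were low in the NPC library. SLC16A1, the lactate and pyruvate carrier MCT1, stood at 96.2 FPKM in the diploid ESC library, 129.9 in the haploid ESC library and 17.6 in the NPC library. SLC16A3, the lactate exporter MCT4, was high in diploid ESCs alone, at 36.6, 3.21 and 6.65 FPKM. The haploid ESC library therefore lay below the NPC library for SLC16A3 and above it for SLC16A1. Among zinc carriers the plasma membrane importers SLC39A14 and SLC39A4 stood at 56.4, 57.7 and 3.47 FPKM and 54.02, 27.4 and 5.22 FPKM, and the exporter SLC30A1 at 17.7, 19.99 and 2.19 FPKM. Carriers that move zinc at internal membranes went both ways. SLC30A3, of synaptic vesicles, stood at 10.6, 10.5 and 0.25 FPKM. SLC30A6, which acts at the Golgi, stood at 7.29, 8.79 and 43.03 FPKM, and SLC39A7, which releases zinc from the endoplasmic reticulum, at 58.2, 66.8 and 125 FPKM, a log2 ratio of 1.10. Metallothionein MT2A, a zinc binding protein among the 15 genes with the largest loss in FPKM, stood at 966, 472 and 29.3 FPKM.

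Carriers of organelles had few members past 4-fold. Of 46 mitochondrial carriers 1 was higher and 1 lower, the latter being the folate and FAD carrier SLC25A32 at 13.4, 15.3 and 2.01 FPKM. The ADP/ATP carrier SLC25A6, the most abundant carrier in either library, stood at 683, 579.7 and 510.4 FPKM. Nucleoside and nucleotide sugar carriers had 3 of 29 higher and none lower. SLC35F1, an orphan of that family, had the highest ratio of all carriers, at 1.6, 0.92 and 48.01 FPKM and a log2 ratio of 4.24. SLC35A3, which brings UDP-N-acetylglucosamine into the Golgi, stood at 4.14, 5.85 and 22.2 FPKM. None of 20 ABC transporters was past 4-fold in either direction. Of 43 ion pumps 3 were lower and none higher, among them the calcium pump of the endoplasmic reticulum ATP2A2 (SERCA2) at 60.01, 107 and 12.2 FPKM and the phospholipid flippase ATP11A at 12.2, 11.9 and 2.29 FPKM.

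Potassium channels had a median of 0.84, beside 0.05 over all genes. Of 34 members 5, or 14.7%, were higher, beside 8.22% of all genes, and 2, or 5.88%, were lower, beside 6.07%. The inward rectifiers KCNJ13 and KCNJ4 stood at 1.19, 0.61 and 22.9 FPKM and 0.66, 0.07 and 12.6 FPKM, and no ESC library was above 1.19 FPKM for either. KCNK1, a leak channel of the tandem pore family, was lower, at 12.4, 3.59 and 1.54 FPKM. KCNA7, a voltage gated channel known from muscle, was the most abundant potassium channel gene in both diploid libraries, at 33.5, 9.62 and 165 FPKM, and KCNH6 stood at 2.29, 0.88 and 19.6 FPKM. The higher members KCNJ13, KCNJ4, KCNA7 and KCNH6 were each lowest in haploid ESCs, an order taken up in the next paragraph. Of 52 chloride and other channels 4 were higher and 1 lower, the latter being the stretch activated channel PIEZO1 at 10.2, 5.95 and 1.63 FPKM. TMEM163, a zinc transporting protein of synaptic vesicles, stood at 1.45, 0.16 and 15.5 FPKM.

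Several of the higher carriers and channels are known mainly for tissues outside the brain. The proline and glycine carrier SLC36A2 of kidney stood at 5.71 FPKM in the diploid ESC library, 3.08 in the haploid ESC library and 65.3 in the NPC library. The liver carrier SLC22A9 stood at 3.34, 1.44 and 38.8 FPKM, SLC12A8 at 7.28, 3.95 and 62.6 FPKM, and the mitochondrial carrier SLC25A34 at 4.06, 1.72 and 35.7 FPKM. The kidney water channel AQP6 stood at 2.4, 1.41 and 22.1 FPKM, the heat sensor TRPV1 of sensory neurons at 2.72, 1.39 and 25.2 FPKM and the ATP gated channel P2RX7 of immune cells at 2.53, 1.1 and 20.1 FPKM. Each was lowest in haploid ESCs, higher in diploid ESCs and highest in NPCs. That order was not particular to such genes. Of the 1198 genes higher in NPCs, 756, or 63.1%, stood lower in haploid than in diploid ESCs, beside 50.4% of all genes compared. Genes of neural cells went both ways. ADGRG1, WNT7B, NTRK2 and HES6, described below, had that order as well. Others, among them PTN, FABP7, POU3F2, NR2F1 and SOX1, stood higher in haploid than in diploid ESCs. CMBL, a hydrolase, and RAB42, a small GTPase, both among the 15 genes with the largest gain in FPKM, had that order too, at 805, 245 and 3038 FPKM and 575, 151.24 and 2444 FPKM. So had the medians of genes without a coding transcript. Of 1430 genes with noncoding transcripts alone, 20.6% stood higher by 4-fold or more and 6.85% lower, with median levels of 2.01 FPKM in the diploid ESC library, 1.45 in the haploid ESC library and 4.06 in the NPC library. Among 13148 genes with a coding transcript, 6.88% were higher and 5.99% lower, with a median log2 ratio of -0.02. For the genes of this paragraph, the higher potassium channel genes above and the genes of other tissues below, the deposited values do not show the source of the reads. Whether it was spliced RNA, unspliced RNA or genomic DNA was not tested.

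Lists of genes known for 6 other tissues, chosen after these values were seen, were summed in each library. Because of that choice, their counts support nothing. Counts for these lists and for the marker lists above are over all their genes in the deposited table, whatever their level. On that base 5.06% of all 23697 genes were higher and 3.73% lower. The blood cell list summed to 26.5 FPKM in the diploid ESC library, 16.4 in the haploid ESC library and 195 in the NPC library, with 5 of 14 measured genes higher and none lower. The gut list summed to 24.8, 13.9 and 186 FPKM with 4 of 15 higher, the retina list to 12.1, 10.9 and 88.6 FPKM with 4 of 18 higher, and the liver list to 6.79, 3.12 and 46.3 FPKM with 3 of 11 higher. The testis list summed to 6.35, 4.95 and 18.2 FPKM with 1 of 11 higher. The muscle list, at 89.2, 113 and 75.8 FPKM, had 2 of 16 higher and 2 lower. A few genes made up these sums in NPCs. MEFV, a gene of granulocytes, stood at 11.8, 6.5 and 106 FPKM and VSIG1, a junction protein of the stomach, at 14.1, 9.04 and 131 FPKM, whereas the medians of the NPC values were 0.10 FPKM for the blood list and 0.58 FPKM for the gut list. MOG, a protein of myelin, stood at 6.32, 3.27 and 97.1 FPKM, while the oligodendrocyte genes MBP and SOX10 stood at 1.36, 1.76 and 1.93 and at 0.38, 0.02 and 0.03 FPKM. What part cells of these types have in the NPC values was not tested. Some genes known for such tissues are marked where they come up below. Unmarked genes, among them WNT9B and BMP8B, can have the same order of libraries.

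**Figure D2:**
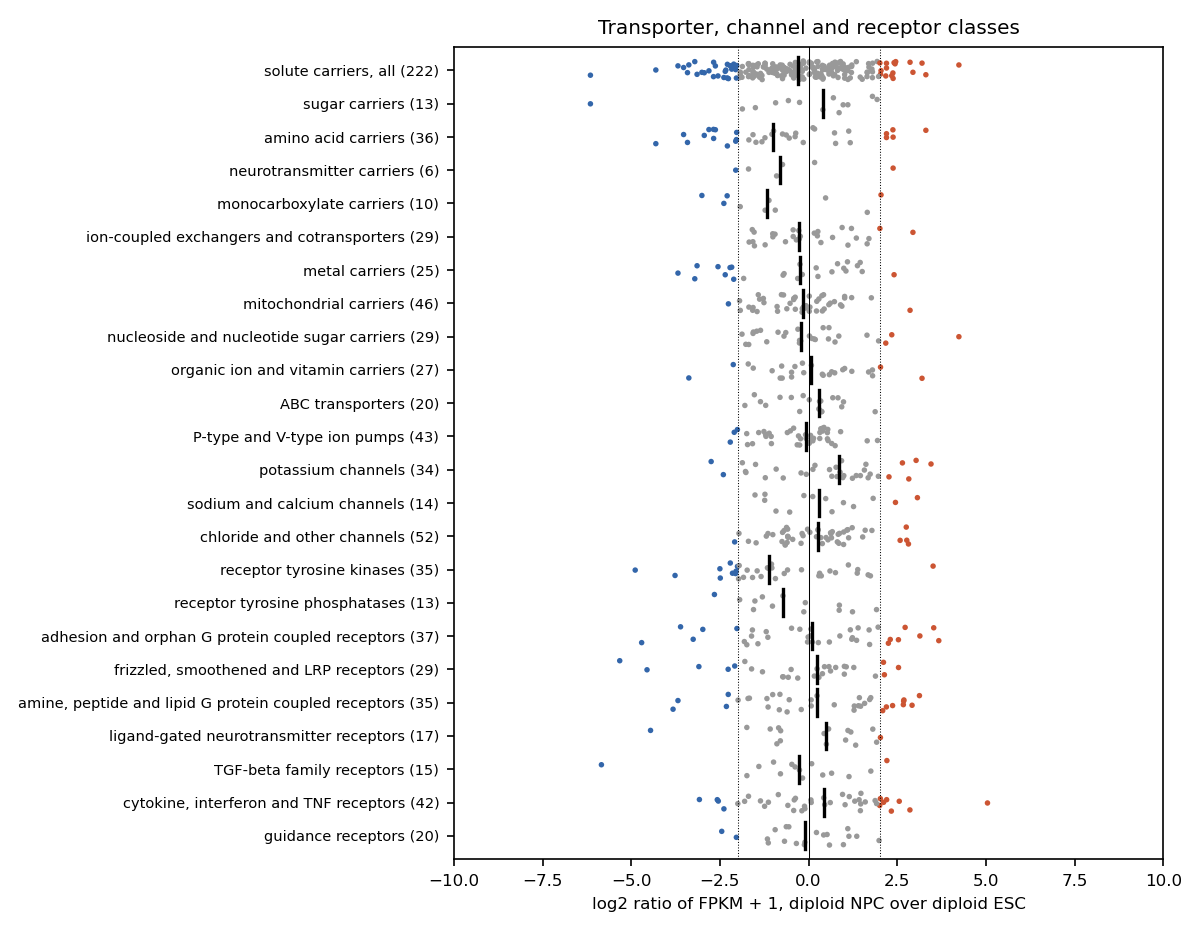
Log2 ratio of FPKM + 1 (x axis, diploid NPC over diploid ESC) for each gene of the transporter, channel and receptor classes, with the number of genes compared in parentheses. Red points are at least 4-fold higher in NPCs, blue points at least 4-fold lower, and the black bar is the class median, at -1.01 for amino acid carriers, 0.84 for potassium channels and -1.13 for receptor tyrosine kinases.

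Among receptors, the tyrosine kinases were the family with the most members lower. Of 35 genes, 9 were at least 4-fold lower, 1 was higher, and the median log2 ratio was -1.13. EPHA1, a receptor for ephrins, stood at 33.7 FPKM in the diploid ESC library, 39.8 in the haploid ESC library and 0.17 in the NPC library, and EPHA2 at 34.8, 38.2 and 5.37 FPKM. ERBB2, the co-receptor of the EGF receptor family and the most abundant member in diploid ESCs, stood at 151.17, 86.6 and 31.9 FPKM. ROR2, which binds WNT5A, stood at 12.02, 17.96 and 1.3 FPKM. In these 4 both ESC libraries lay above the NPC library. KIT, the receptor of stem cell factor, was high in diploid ESCs alone, at 19.1, 0.84 and 0.48 FPKM.

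NTRK2, the receptor of brain derived neurotrophic factor, was the member at least 4-fold higher, at 0.38, 0.2 and 14.7 FPKM, and the collagen receptor DDR1 was the most abundant in NPCs at 44.4, 39.9 and 150.75 FPKM. FGFR1, the main FGF receptor of both cell types and named after its values were seen, stood at 61.2, 93.5 and 104 FPKM, within 2-fold. Within the ephrin receptors the EPHB group was split, with EPHB2 at 4.82, 3.13 and 17.6 FPKM, EPHB3 at 7.93, 2.78 and 22.3 FPKM and EPHB4 at 59.3, 62.04 and 17.2 FPKM, again named after their values were seen. The first and the second were highest in NPCs and EPHB4 was highest in ESCs. PTPRZ1, a tyrosine phosphatase that carries chondroitin sulfate chains and binds pleiotrophin, stood at 37.6, 30.1 and 144 FPKM and was the most abundant receptor phosphatase in NPCs. PTPRU was lower, at 11.8, 2.09 and 1.03 FPKM.

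WNT receptors differed by member. Of 29 genes in the class of frizzled, smoothened and LRP receptors 5, or 17.2%, were lower, beside 6.07% of all genes. The higher members were 3, or 10.3%, beside 8.22%, namely FZD2, FZD10 and LDLRAD2. LDLRAD2 stood at 5.71, 0.19 and 27.97 FPKM. FZD5 and FZD8, close relatives in sequence, stood at 55.1, 12.8 and 0.4 FPKM and 45.3, 18.3 and 0.97 FPKM, and FZD7, the most abundant frizzled of the ESC libraries, at 91.4, 84.3 and 9.83 FPKM. FZD2 was higher in NPCs at 3.32, 4.09 and 17.99 FPKM. FZD10 stood at 2.23, 17.9 and 17.7 FPKM, so that it was low in diploid ESCs alone. The R-spondin receptors LGR4 and LGR5 stood at 19, 25.2 and 1.53 FPKM and 19.9, 0.42 and 0.71 FPKM, and LGR5 was high in diploid ESCs alone. The Nodal co-receptor TDGF1 stood at 117, 90.97 and 1.06 FPKM and was the only lower member among 15 receptors of the TGF-beta family. The signalling receptors of that family did not pass 4-fold in this direction. TGFBR1 stood at 17.4, 35.4 and 15.4 FPKM, ACVR1B at 13.9, 9.6 and 6.49 FPKM and ACVR2B at 8.76, 13.9 and 4.63 FPKM. The BMP receptor BMPR1B stood at 0.82, 3.57 and 7.4 FPKM, a log2 ratio of 2.21.

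Receptors of the CNTF and LIF type were higher in NPCs. Of 42 cytokine, interferon and TNF receptors 8 were higher and 4 lower, with a median of 0.44. CNTFR, which binds ciliary neurotrophic factor, stood at 1.52 FPKM in the diploid ESC library, 1.85 in the haploid ESC library and 82.04 in the NPC library, a log2 ratio of 5.04, the highest among all receptors. LIFR stood at 2.78, 2.71 and 15.4 FPKM and OSMR, the oncostatin M receptor, at 3.92, 9.34 and 18.99 FPKM. Their shared signal transducer IL6ST (gp130), named after its values were seen, was not higher past 4-fold, at 3.41, 9.73 and 4.92 FPKM. With trimmed mean (TMM) scaling of the libraries, LIFR and OSMR no longer reached 4-fold and 5 receptors of the class were higher and 5 lower. TNFRSF12A, the receptor of TWEAK, was lower at 144, 129 and 23.8 FPKM. The chemokine receptor CXCR4 stood at 112, 7.68 and 17.9 FPKM, so that diploid ESCs stood above both other libraries. CXCR4 is also a marker of endoderm, and the sums of that marker list are given above; their part in its level was not tested. Its ligand CXCL12 stood at 18.3, 35.5 and 0.06 FPKM.

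Of 37 adhesion and orphan G protein coupled receptors 7, or 18.9%, were higher and 5 lower. ADGRG1 (GPR56), an adhesion receptor of neural progenitors that binds collagen III, stood at 5.08, 2.41 and 69.1 FPKM, and the brain receptor ADGRB2 at 1.3, 1.4 and 14.2 FPKM. GPR1, which binds chemerin, and the orphan GPR162 stood at 3.71, 2.43 and 58.9 FPKM and 3.47, 2.34 and 38.3 FPKM, and both were lowest in haploid ESCs. The orphan GPR176 was the receptor of this class most abundant in diploid ESCs, at 40.8, 41.5 and 0.6 FPKM. GPR37, known from oligodendrocytes, stood at 16.1, 3.57 and 0.79 FPKM.

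Receptors for amines, peptides and lipids had 8 of 35 members higher, or 22.9%, and 4 lower, and against haploid ESCs 8 were higher and none lower. EDNRB, the endothelin receptor of glia and neural crest, stood at 0.28, 0.24 and 10.2 FPKM. The lipid receptors S1PR3 and LPAR3, for sphingosine 1-phosphate and lysophosphatidic acid, stood at 4.69, 6.38 and 35.6 FPKM and 0.84, 0.56 and 12.9 FPKM. The gastrin receptor CCKBR and the serotonin receptor HTR1B were high in diploid ESCs alone, at 13.1, 0.76 and 0 FPKM and 12.4, 1.77 and 0.04 FPKM. Of 17 ligand gated receptor genes 1 was higher and 1 lower. Guidance receptors had 2 of 20 lower and none higher, namely the netrin receptor UNC5B at 21.8, 47.9 and 3.17 FPKM and the semaphorin receptor PLXND1 at 21.6, 11.2 and 4.52 FPKM.

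Ligands and their antagonists had 24 of 142 members higher, or 16.9%, and 23 lower, or 16.2%, with a median of 0.21. FGF ligands accounted for part of the lower members, with 4 of 11 lower, none higher and a median of -1.16. FGF17 stood at 207 FPKM in the diploid ESC library, 17.3 in the haploid ESC library and 0.68 in the NPC library. FGF8, a signal of the gastrula and of the midbrain-hindbrain boundary, stood at 23.1, 21.4 and 0 FPKM, a value of 0 meaning that it was listed at 0. In both cases NPCs were at or near 0.

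WNT ligands and antagonists had 3 of 19 members higher, 2 lower and a median of 1.03, and against haploid ESCs 7 were higher and 1 lower. WNT5A, a ligand that mostly signals without beta-catenin, stood at 1.95, 7.12 and 42.2 FPKM, and WNT7B, a ligand of the neural tube, at 1.54, 1.05 and 22.5 FPKM. WNT9B stood at 1.83, 0.93 and 18.1 FPKM. The secreted antagonist SFRP1 was the class's most abundant member in ESCs and stood at 145, 192 and 15.7 FPKM, whereas SFRP2 stood at 38.2, 76.9 and 78.9 FPKM. SFRP2 was thus as high in haploid ESCs as in NPCs.

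Members of the TGF-beta family and their antagonists had 4 of 27 higher and 7 lower. NODAL stood at 59.5, 15.03 and 0 FPKM and its antagonist CER1 at 663, 37.6 and 0.26 FPKM, both lower in haploid than in diploid ESCs and lowest in NPCs. The activin binding protein FST (follistatin) stood at 74, 109 and 17.6 FPKM. The higher members were all BMP or GDF ligands. BMP7 stood at 8.77, 13.9 and 66.2 FPKM, GDF11 at 3.44, 6.97 and 22.7 FPKM and GDF10 at 0.26, 1.75 and 26.4 FPKM. BMP8B stood at 1.12, 0.69 and 13.54 FPKM.

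Among other growth factors, pleiotrophin had the highest log2 ratio of all genes with a symbol and at least 10 FPKM in either library, 7.89. Its family member midkine (MDK) stood at 783, 712 and 845 FPKM and was abundant in all 3 libraries. PDGFA and VEGFA, which act on mesenchymal and endothelial cells, were lower, at 25.1, 13.1 and 0.46 FPKM and 38.95, 15.1 and 4.86 FPKM, while PDGFC stood at 1.57, 9.3 and 11.9 FPKM. PTX3, a secreted pentraxin among the 25 highest ratios, stood at 0.22, 0.79 and 53.2 FPKM.

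IGF binding proteins had 3 of 7 members higher and 1 lower, with a median of -0.24, which turned to 1.22 against haploid ESCs. IGFBP2 was the most abundant, at 266 FPKM in the diploid ESC library, 338 in the haploid ESC library and 1069.8 in the NPC library. IGFBP5 stood at 4.04, 0.91 and 137 FPKM and IGFBPL1 at 0.21, 1.7 and 13.3 FPKM. With TMM scaling or a common library sum IGFBP2 fell just short of 4-fold. IGFBP6 was high in diploid ESCs alone, at 27.9, 0.75 and 3.07 FPKM. The class as a whole made up 0.06% of the summed FPKM in diploid ESCs and 0.21% in NPCs, and IGFBP2 was most of it in both.

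Guidance ligands had 4 of 31 members higher and 5 lower, with the families split. SLIT1, a repellent of axons, stood at 0.06, 0.18 and 21.4 FPKM, and EFNB1, the ephrin that EPHB receptors bind, at 24.8, 47.6 and 124 FPKM. EFNA5 stood at 3.79, 16.02 and 26.1 FPKM. Among semaphorins SEMA5B was higher, at 6.21, 9.29 and 31.2 FPKM, and SEMA6A, SEMA3F and SEMA7A were lower, at 46.6, 59.6 and 6.99 FPKM, 24.4, 13.7 and 3.01 FPKM and 13.3, 14.6 and 0.65 FPKM. The median of guidance ligands was 0.21 and turned to -0.32 when haploid ESCs were the reference. Chemokines had 5 of 11 higher, 2 lower and a median of 2.00. The higher members named by the rule were CCL5 at 7.1, 4.03 and 82.7 FPKM, CCL28 at 4.64, 2.2 and 36.2 FPKM, CCL25 at 2.58, 1.68 and 16.3 FPKM and CCL22 at 3.21, 1.79 and 18.5 FPKM. These are chemokines of blood, gut and thymus, and all 4 had the order of libraries described for carriers of other tissues. PTPRC, the common leukocyte antigen, stood at 0.01, 0.13 and 0 FPKM.

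**Figure D3:**
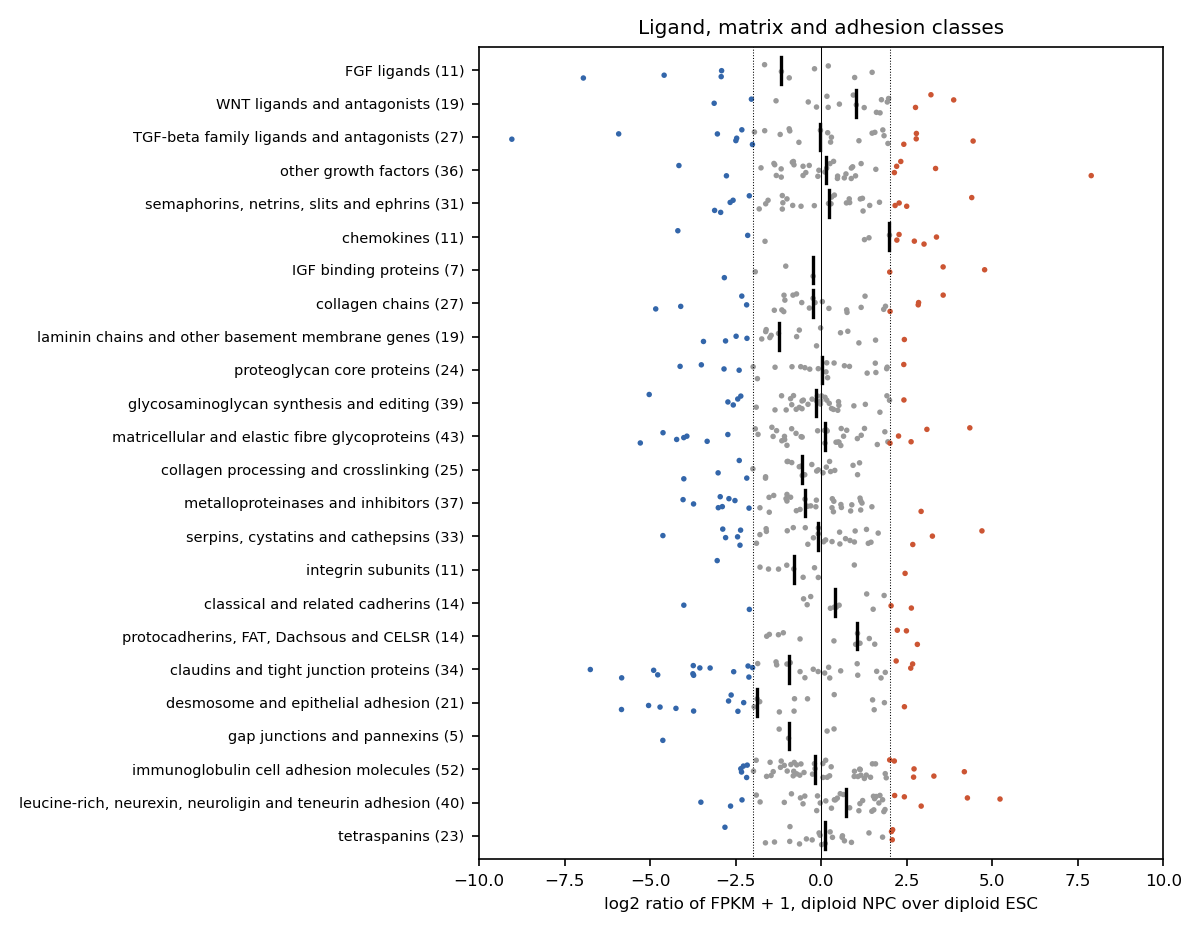
Log2 ratio of FPKM + 1 (x axis, diploid NPC over diploid ESC) for each gene of the ligand, matrix and adhesion classes, with the number of genes compared in parentheses. Red and blue points are at least 4-fold higher and lower in NPCs, and the black bar is the class median, at -1.87 for desmosome and epithelial adhesion genes and 1.03 for protocadherins.

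Matrix genes that passed 4-fold were mostly lower in NPCs. Of 246 genes, 42, or 17.1%, were lower and 16, or 6.50%, higher, with a median of -0.29. Matricellular genes had the largest difference in summed level between the diploid libraries among matrix classes, at 5004 FPKM in diploid ESCs and 1155 in NPCs, but haploid ESCs stood at 1541 FPKM. Most of the difference between the ESC libraries lay in SPP1 (osteopontin), which stood at 3071 FPKM in the diploid ESC library, 26.8 in the haploid ESC library and 124 in the NPC library. SPP1 was the gene with the largest loss in FPKM from diploid ESCs to NPCs, and haploid ESCs were below NPCs.

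Other matricellular genes stood low in NPCs beside either ESC library. THBS1 (thrombospondin 1) stood at 104 FPKM in the diploid ESC library, 99.3 in the haploid ESC library and 1.68 in the NPC library. CTGF and CYR61, CCN proteins and known targets of YAP, stood at 198, 165 and 9.65 FPKM and 195, 142 and 11.1 FPKM. For all 3, the ESC libraries were close to each other and far above NPCs. POSTN (periostin) and THBS3 were higher in NPCs, at 1.27, 9.59 and 45.1 FPKM and 8.89, 11.1 and 83.2 FPKM. CLU (clusterin) was the most abundant member in NPCs, at 157, 71.4 and 237 FPKM.

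Collagen chains had 4 of 27 members higher and 4 lower, with a median of -0.24. COL1A1, of fibrillar collagen I, stood at 235 FPKM in the diploid ESC library, 206 in the haploid ESC library and 12.7 in the NPC library, whereas its partner chain COL1A2, named after its values were seen, stood at 61.03, 161 and 47.9 FPKM. The pair therefore differed in ratio, at -4.11 and -0.34. COL1A1 and COL1A2 are also fibroblast markers, and of that list the proteoglycans DCN and LUM were low in every library, at 0.87, 1.6 and 1.13 and at 0.98, 0.26 and 2.17 FPKM. COL3A1 stood at 13.1, 61.1 and 6.97 FPKM. What part cells of that type have in the collagen values was not tested. COL2A1, a fibrillar collagen known from cartilage and the early neural tube, stood at 1.1, 5.66 and 23.9 FPKM and COL8A1 at 0.75, 2.24 and 11.6 FPKM. COL9A2 was high in diploid ESCs alone, at 85.8, 5.78 and 2.04 FPKM. COL6A1, of the beaded collagen VI, was the most abundant chain in NPCs, at 32.1, 19.5 and 121 FPKM.

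Basement membrane genes had 4 of 19 lower and 1 higher, with a median of -1.25. LAMB1 and LAMA5, laminin beta and alpha chains, stood at 45.6, 25.9 and 3.29 FPKM and 32.5, 30.5 and 6.46 FPKM, and the heparan sulfate proteoglycan HSPG2 (perlecan) at 22.3, 42.9 and 2.36 FPKM. LAMB2, the other widely expressed beta chain, stood at 17.2, 21.98 and 53.8 FPKM, which made it the most abundant member in NPCs. The shared gamma chain LAMC1, named after its values were seen, stood at 19.2, 36.5 and 28.9 FPKM. Within laminin the beta 1 chain was therefore at least 4-fold lower, while the beta 2 chain, with a log2 ratio of 1.59, did not reach 4-fold.

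Cell surface proteoglycans were also split by member. SDC4 (syndecan 4) and GPC4 (glypican 4) stood at 68.4, 53.2 and 2.98 FPKM and 164, 146 and 13.6 FPKM, high in both ESC libraries. SDC2 (syndecan 2) stood at 7.95, 6.73 and 46.7 FPKM. Of 39 genes that build or edit glycosaminoglycans 5 were lower and 1 higher. The hyaluronan synthases HAS2 and HAS3 stood at 62.5, 8.57 and 0.95 FPKM and 32.8, 9.14 and 4.69 FPKM, UGDH, which makes the UDP-glucuronate that they use, at 70.3, 76.9 and 13 FPKM, and the chondroitin sulfotransferase CHST11 at 13.3, 11.7 and 1.64 FPKM. HPSE (heparanase), which cleaves heparan sulfate, was higher at 2.47, 1.43 and 17.6 FPKM.

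Genes of collagen processing and of the metalloproteinase class were lower where they passed 4-fold, except for ADAMTS17. None of 25 genes of collagen processing was higher and 4 were lower, among them the procollagen C-proteinase enhancers PCOLCE2 at 16.8, 11.6 and 0.1 FPKM and PCOLCE at 11.01, 4.47 and 1.66 FPKM and the prolyl 3-hydroxylation partner CRTAP at 18.4, 16.9 and 2.69 FPKM. The collagen chaperone SERPINH1 stood at 340.04, 389 and 321 FPKM, within 2-fold. Of 37 metalloproteinases and inhibitors 8 were lower and 1 higher. ADAM10, the main sheddase of Notch and cadherins, stood at 33.5, 73.8 and 5.02 FPKM, ADAM19 at 35.4, 25.8 and 1.22 FPKM and the membrane bound MMP25 at 48.8, 54 and 2.75 FPKM. The inhibitors differed, with TIMP3 at 11.1, 21.9 and 0.56 FPKM and TIMP1 at 207, 141 and 259 FPKM. ADAMTS17, the higher member, had the order of libraries of the carriers of other tissues, at 7.06, 3.05 and 60.03 FPKM.

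Among protease inhibitors 3 of 33 serpin, cystatin and cathepsin genes were higher and 6 lower, and against haploid ESCs 5 were higher and 1 lower. CST3 (cystatin C), a cysteine protease inhibitor abundant in cerebrospinal fluid, stood at 21.4, 0.4 and 213 FPKM, and A2M (alpha 2 macroglobulin) at 0.16, 3.23 and 29.1 FPKM. Haploid ESCs thus had the lowest level of CST3. SPINT1, an inhibitor of epithelial serine proteases, stood at 37.5, 2.86 and 0.56 FPKM and SERPINB6 at 363, 106 and 51.5 FPKM. PRSS8 (prostasin), an epithelial serine protease among the 25 lowest ratios, stood at 69.4, 6.74 and 0.29 FPKM.

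Adhesion genes had 24 of 214 members higher, or 11.2%, and 35 lower, or 16.4%. The classes with the most lower members were epithelial. Claudins and other tight junction genes had 13 of 34 lower, 3 higher and a median of -0.95, and desmosome and epithelial adhesion genes 9 of 21 lower, 1 higher and a median of -1.87. Against haploid ESCs the tight junction class had 7 lower, 6 higher and a median of -0.17, while the desmosome class had 7 lower, 2 higher and a median of -1.51. CLDN6, the main claudin of the ESC libraries, stood at 609 FPKM in the diploid ESC library, 316 in the haploid ESC library and 4.68 in the NPC library. CLDN7 stood at 55.9, 0.46 and 0 FPKM, so that it was high in diploid ESCs alone. The junction adhesion molecule F11R (JAM-A) stood at 91.96, 26.9 and 2.39 FPKM and the tricellular junction receptor LSR at 124, 42.5 and 3.21 FPKM.

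EPCAM, the epithelial cell adhesion molecule, stood at 150.4, 22.2 and 1.65 FPKM and DSP (desmoplakin), which ties desmosomes to keratin, at 34.5, 21.5 and 0.87 FPKM. The epithelial splicing regulators ESRP1 and ESRP2, listed with this class, stood at 34.6, 1.77 and 0.08 FPKM and 25.9, 6.26 and 0.03 FPKM. All 4 were highest in diploid ESCs and lowest in NPCs, with haploid ESCs between. The members higher in NPCs were few. CRB2, a Crumbs polarity protein of the neural tube, stood at 1.18, 1.17 and 12.9 FPKM and the junction adhesion molecule JAM2 at 4.33, 3.51 and 31.7 FPKM. DSC3 and MARVELD3, a desmosomal cadherin and a tight junction protein of other epithelia, stood at 2.81, 1.13 and 19.6 FPKM and 10.2, 3.8 and 50.2 FPKM. The polarity protein PARD6G, the most abundant tight junction member in NPCs, did not reach 4-fold, at 30.9, 17.4 and 116 FPKM and a log2 ratio of 1.87. The gap junction protein GJA1 (connexin 43) was the lower member of 5 connexins and pannexins, at 394, 277 and 14.97 FPKM.

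Cadherins and protocadherins differed from the epithelial classes. Of 14 cadherins 2 were higher and 2 lower. CDH3 (P-cadherin) stood at 26.6, 14.8 and 0.71 FPKM and CDH20 at 1.97, 1.6 and 11.2 FPKM. CDH2 (N-cadherin), the cadherin of the neural tube and named after its values were seen, stood at 46.6, 114 and 60.95 FPKM, so that the highest level was in haploid ESCs. Protocadherins, FAT, Dachsous and CELSR genes had 3 of 14 higher, none lower and a median of 1.03. Against haploid ESCs this direction turned, with 2 higher, 6 lower and a median of -0.50. PCDH17 stood at 0.95, 2.32 and 12.7 FPKM and the planar polarity cadherin CELSR2 at 3.52, 5.46 and 20.1 FPKM. Integrin subunits had 1 of 11 higher and 1 lower, the latter being ITGA6, a laminin receptor chain, at 53.7, 39.2 and 5.66 FPKM. The shared beta chain ITGB1 stood at 107, 215 and 60.97 FPKM, within 2-fold of diploid ESCs.

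Among immunoglobulin type adhesion molecules 6 of 52 were higher and 5 lower. BOC, a co-receptor of Sonic hedgehog, stood at 1.58, 4.38 and 45.9 FPKM and NRCAM, a neural adhesion molecule of the L1 family, at 0.57, 1.06 and 14.4 FPKM. L1CAM itself was lower, at 22.7, 26.5 and 3.91 FPKM, and so were IGLON5 at 53.2, 86.4 and 9.63 FPKM and ALCAM at 33.8, 22.4 and 6.79 FPKM. NCAM1, the neural cell adhesion molecule and named after its values were seen, stood at 9.83, 16.5 and 31.6 FPKM, a log2 ratio of 1.59. Adhesion proteins with leucine-rich repeats, neurexins, neuroligins and teneurins had 5 of 40 higher, 3 lower and a median of 0.74. Against haploid ESCs 8 were higher and 7 lower, with a median of 0.43. LRRC4B, a postsynaptic partner of receptor phosphatases, stood at 0.19, 0.14 and 43.6 FPKM, SLITRK1 at 0.03, 0.16 and 18.9 FPKM and the teneurin TENM2 at 1.32, 0.33 and 16.6 FPKM. LRIG3 was lower, at 30.1, 30.6 and 1.72 FPKM. The 3 higher members named were at 1.32 FPKM or less in both ESC libraries.

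**Figure D4:**
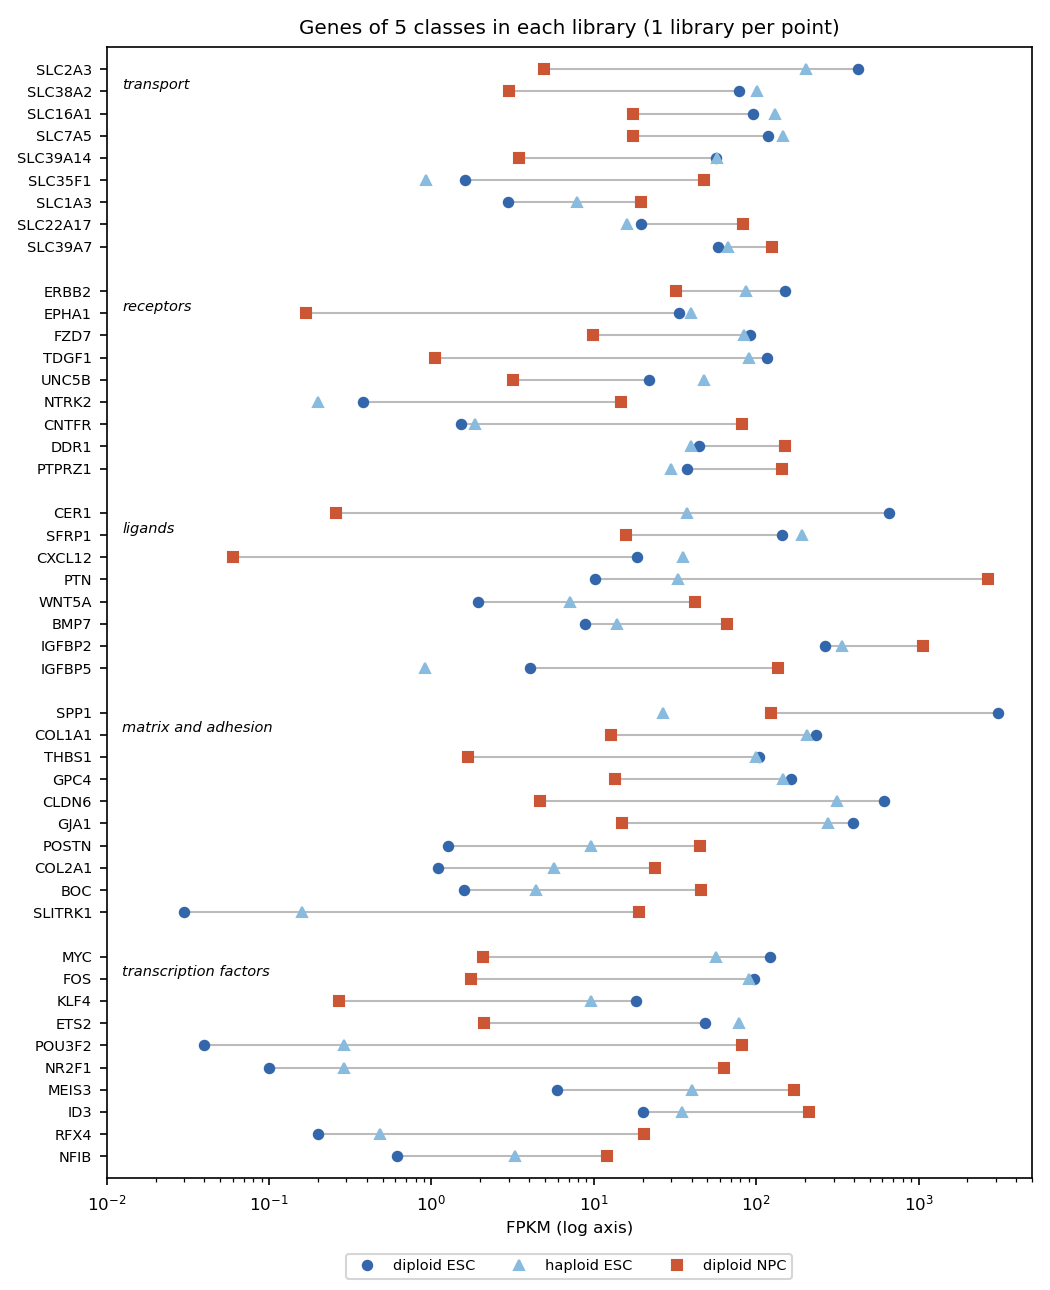
FPKM on a log axis (x axis) of 46 genes of 5 kinds in the diploid ESC (dark blue circles), haploid ESC (light blue triangles) and diploid NPC (red squares) libraries, 1 library per point, with a grey line joining the diploid libraries. For SPP1, haploid ESCs, at 26.8 FPKM, lie below NPCs although diploid ESCs lie far above.

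Transcription factors had 64 of 763 members higher, or 8.39%, and 74 lower, or 9.70%, beside 8.22% and 6.07% of all genes, with a median of -0.06. The counts differed by family. PAX factors had 2 of 3 higher, and HOX factors 6 of 12 higher, none lower and a median of 1.99. Many of these were low in level: among members that averaged at least 5 FPKM, 1 HOX and 1 PAX factor were higher. TALE homeodomain factors had 6 of 16 higher, 1 lower and a median of 1.21. POU factors had 3 of 7 higher and 1, POU5F1, lower. Families with many lower members were paired-like homeodomain factors, with 6 of 13, GATA, RUNX, TFAP2, GRHL and EBF factors, with 5 of 12 and 3 higher, and forkhead factors, with 6 of 24 and 1 higher. KLF and SP factors had 4 of 18 lower, none higher and a median of -1.47, ETS factors 4 of 17, none higher and -1.16, and bZIP factors 9 of 42, 1 higher and -0.81. Against haploid ESCs fewer members passed in some of these families, with 4 bZIP, 3 forkhead and 2 GATA class factors lower, whereas 5 paired-like, 6 KLF and SP and 4 ETS factors were lower.

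**Figure D5:**
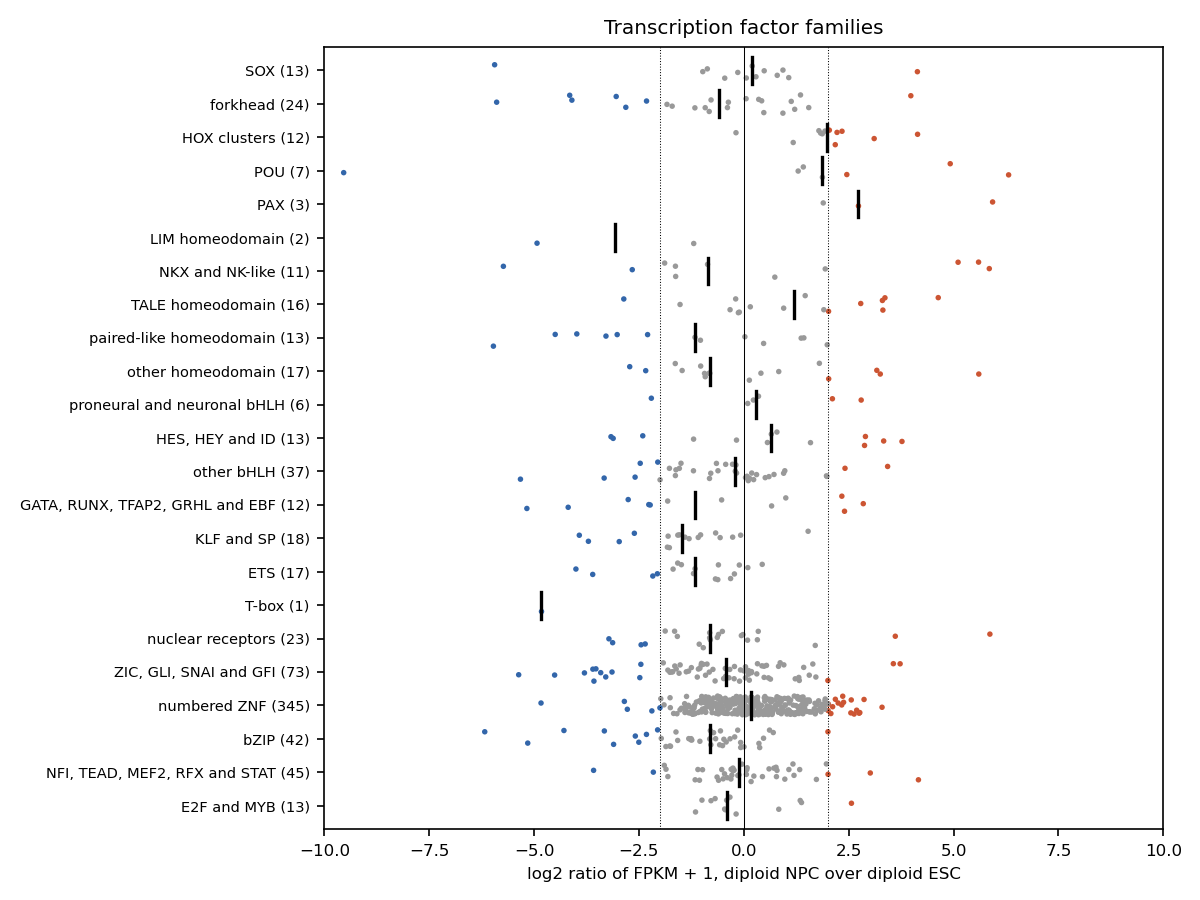
Log2 ratio of FPKM + 1 (x axis, diploid NPC over diploid ESC) for each gene of 23 transcription factor families, with the number of genes compared in parentheses. Red and blue points are at least 4-fold higher and lower in NPCs, and the black bar is the family median, at -1.47 for KLF and SP, 1.21 for TALE and 0.17 for numbered ZNF genes.

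The POU class III factors, which drive neural genes together with SOX factors, were at 1.82 FPKM or less in both ESC libraries. POU3F2 stood at 0.04 FPKM in the diploid ESC library, 0.29 in the haploid ESC library and 81.6 in the NPC library, POU3F3 at 0.29, 0.21 and 38.05 FPKM and POU3F1 at 1.82, 0.32 and 14.5 FPKM. Among TALE factors, which bind DNA with HOX proteins, MEIS3 was the most abundant in NPCs, at 5.95, 40.2 and 172 FPKM, and MEIS2 stood at 0.85, 0.86 and 17.3 FPKM. The Iroquois factors IRX1 and IRX2 stood at 1.21, 0.87 and 21.8 FPKM and 11.4, 17 and 122.87 FPKM. PBX3, named after its values were seen, stood at 19.2, 36.2 and 21.5 FPKM, within 2-fold of diploid ESCs. TGIF1, a repressor of Nodal and retinoid targets, was lower at 209.6, 85.3 and 27.98 FPKM.

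The orphan receptors NR2F1 and NR2F2 (COUP-TFI and II) were the 2 nuclear receptors that were higher among 23, against 4 lower. They stood at 0.1, 0.29 and 63.1 FPKM and 2.46, 3 and 41.3 FPKM. NR4A1, an immediate early gene, stood at 73.8, 24.3 and 7.05 FPKM. Among other homeodomain factors GBX2, of the anterior hindbrain, stood at 1.26, 1.83 and 109 FPKM, ZFHX3 at 0.47, 0.95 and 12.2 FPKM and ZEB1, a repressor of epithelial genes, at 1.4, 14.5 and 21.9 FPKM. Haploid ESCs stood close to NPCs for ZEB1. Among SOX factors, SOX1 stood at 0.09, 0.14 and 18.2 FPKM and the endoderm factor SOX17 at 60.4, 0.1 and 0 FPKM, and no other of the 13 passed 4-fold. FOXJ1, the regulator of motile cilia, was the higher forkhead gene, at 1.03, 0.55 and 31.1 FPKM.

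The ID proteins, which block basic helix-loop-helix factors, and the HES repressors were higher in part. ID2 stood at 10.2, 41.8 and 151.36 FPKM and ID3 at 20.1, 34.7 and 212 FPKM, while ID1 stood at 87.7, 81.3 and 152 FPKM, within 2-fold of diploid ESCs. HES6 stood at 2.91, 1.64 and 27.7 FPKM and HES3 went the other way, at 13.1, 14.3 and 0.57 FPKM. Within the network of MYC, MYC itself stood at 122, 56.9 and 2.07 FPKM and MYCN at 28.1, 23.4 and 3.82 FPKM, whereas MXD3, an antagonist that shares the partner MAX, stood at 2.6, 1.77 and 37.7 FPKM. TWIST2 was lower, at 21.02, 26.5 and 1.19 FPKM. RFX4, a regulator of cilia and neural tube patterning, and NFIB, a gliogenic factor, were higher at 0.2, 0.48 and 20.5 FPKM and 0.61, 3.25 and 12.01 FPKM. Of the TEAD factors that partner YAP, TEAD4 was lower at 35.8, 26.5 and 7.24 FPKM, and TEAD2, named after its values were seen, stood at 59.7, 69.6 and 62.6 FPKM.

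Several lower factors are known to respond quickly to growth factors or stress. FOS and FOSB stood at 97.1, 90.95 and 1.76 FPKM and 82.9, 58.4 and 0.16 FPKM, EGR1 and EGR3 at 145, 86.9 and 9.48 FPKM and 24.8, 6.11 and 0.13 FPKM, and KLF10 at 47, 26.2 and 2.68 FPKM. ATF3, a stress induced repressor, stood at 46.5, 6.05 and 1.43 FPKM, so that haploid ESCs were nearer to NPCs. KLF4 and KLF2, which also serve pluripotency, stood at 18.2, 9.56 and 0.27 FPKM and 10.1, 8.14 and 0.42 FPKM, and KLF5 stood at 33.4, 2.13 and 4.64 FPKM, high in diploid ESCs alone. ETS2 and ETS1, targets of the MAP kinase pathway, stood at 48.7, 77.98 and 2.1 FPKM and 19.6, 8.36 and 0.7 FPKM, while ETV4, a target of FGF signalling, stood at 144, 135 and 133 FPKM and was within 2-fold in all 3 libraries. SMAD7, the feedback inhibitor of TGF-beta signalling, stood at 45.1, 31.4 and 2.85 FPKM.

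Factors of mesendoderm were highest in diploid ESCs. FOXA2 stood at 36.7, 0.3 and 1.12 FPKM, GATA4 at 35.8, 5.16 and 0.02 FPKM, GATA6 at 18.1, 3.27 and 0.05 FPKM and EOMES at 27.4, 15.6 and 0 FPKM. In haploid ESCs EOMES was the highest of the 4. LHX1 stood at 32.2, 5.78 and 0.09 FPKM and the paired-like factor DPRX, known from early embryos, at 27.7, 0 and 0.27 FPKM. FOXA2, GATA6 and EOMES are members of the mesendoderm marker list given above, and CER1 alone made up 663 of its 1010 FPKM in diploid ESCs and 37.6 of its 80.9 FPKM in haploid ESCs. Whether the ESC libraries differ in the share of such cells was not tested.

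Zinc finger genes with a ZNF number were the largest family, with 17 of 345 higher, or 4.93%, and 5 lower, or 1.45%, beside 8.22% and 6.07% of all genes, and a median of 0.17. ZNF229 stood at 40.1, 49.4 and 0.44 FPKM and ZNF217, an oncogene of human cancers, at 22.2, 22.8 and 2.38 FPKM. ZNF430 stood at 10.5, 9.55 and 76.4 FPKM, ZNF483 at 7.31, 3.56 and 55.5 FPKM and ZNF556 at 3.57, 2.11 and 43.8 FPKM. The most abundant member in both diploid libraries was ZNF625, at 503, 80.8 and 1247 FPKM, so that the ratio between the ESC libraries was larger than that between the diploid libraries. Among other zinc fingers ZIC1, a factor of the dorsal neural tube, and ZBTB20 stood at 0.02, 0.04 and 12.5 FPKM and 0.1, 0.29 and 12.01 FPKM, and SALL4 and ZFP42, of pluripotent cells, at 48.8, 44.3 and 3.11 FPKM and 49.8, 22.7 and 0.23 FPKM.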

How the data were processed

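RNA of 3 samples was analysed: diploid ESCs, haploid ESCs and diploid NPCs. Per the labels' protocols, Trizol was used to extract total RNA, which was sequenced on a BGISEQ-500. Reads were mapped with STAR 2.4 to the UCSC assembly Rhesus8, with at most 2 mismatches, and counted per gene by featureCounts in its default mode, per the labels' protocols and the submitters' processing notes. Genes whose reads summed to 10 or fewer over the samples were dropped. The authors deposited FPKM with 2 decimals. How the FPKM was computed, the strand setting and total reads were not given in the sources used here. Overlapping and antisense genes therefore cannot be told apart. Columns were matched to samples by the sample description that opens each column name, and 1 column of values matched no sample and was not used.

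FPKM was used as deposited. The log2 ratio of FPKM + 1 (diploid NPC over diploid ESC) was taken over genes that averaged 1 FPKM or more in these libraries, and ratios of at least 4-fold were counted. Each group has 1 library, so no test was possible. Relative depth is the most frequent ratio between libraries over genes at 0.15 to 0.6 FPKM. The members and lists were chosen with earlier results of these data known. The 82 gene classes were defined by symbol. In each class, members with at least 10 FPKM in the higher diploid library were named: up to 4 with the highest and 4 with the lowest ratio past 4-fold, and the most abundant in each library. Over all genes, the 25 highest and lowest ratios and the 15 largest gains and losses in FPKM could be named. Some genes that this rule names are not reported here. Lists for other tissues and genes marked as such were chosen after values were seen. Symbols were checked against RefSeq names (T2T-MMU8v2.0), in which 19875 of the gene IDs were found. No sequence is shown. The alternatives tried are given with their effect in the closing section. The tools were Python (version 3.11.15) with numpy 2.4.6, with pandas 2.3.3, with scipy 1.17.1 and, for figures, matplotlib 3.10.9. The log2 ratio and the 4-fold call were tested on simulated data, and the symbol patterns of some classes were checked. TMM scaling, relative depth and the class and list summaries were not tested in that way.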

Additional observations from a re-analysis of the deposited data

How the results depend on the processing

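No paired analysis was possible because each group has 1 library and the labels give no replicate numbers. Of the counts of genes higher and lower in NPCs, 1198 and 885, those that moved by more than 1.5 times were 1990 and 1475 with a pseudocount of 0.1, 3475 and 2839 at 2-fold, 306 and 311 at 8-fold, and 294 and 98 among noncoding genes alone, an alternative chosen after seeing the data, as was coding genes alone. Higher genes were 57.5% of calls, 50.7% with TMM scaling, 49.6% at 8-fold and 75.0% among noncoding genes. TMM scaling shifted the median log2 ratio of all genes by -0.13, from 0.05 to -0.08. Leaving out the filter could not change these counts, since a 4-fold ratio of FPKM + 1 needs a mean above 1 FPKM. Of 82 class medians, the sign was kept by 82 with the smaller pseudocount, 80 with a common library sum, 75 with TMM, 71 at a mean of at least 5 FPKM, 70 against haploid ESCs and 65 without a filter. Of 250 named genes past 4-fold against diploid ESCs, 57 no longer reached 4-fold in that direction against haploid ESCs. Among those 57 the sign of the log2 ratio turned for SLC16A3 (0.86), FZD10 (-0.015), LGR5 (0.27), CXCR4 (1.13), IGFBP6 (1.22), SPP1 (2.17), KLF5 (0.85), FOXA2 (0.71), DPRX (0.35) and KRT19 (1.36). The cause was not tested. Depth limits low values: by the estimate from low values the NPC library is the shallowest of the 3 used, while haploid ESCs have the most genes at 0.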

Other observations

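Inside the cell, the classes of structural and signalling genes also differed between the diploid libraries. All values are FPKM in diploid ESCs, haploid ESCs and diploid NPCs, in that order. Of 6 keratins compared, 4 were lower in NPCs by 4-fold or more and none higher. Their median log2 ratio was -3.22. Against haploid ESCs 2 were lower and the median was 0.30. KRT8 and KRT18, the keratins of simple epithelia, stood at 436, 173 and 16.9 and at 358, 95.3 and 9.94 FPKM. KRT19 was high in diploid ESCs alone, at 81.9, 2.71 and 8.52 FPKM. Other intermediate filaments had 3 of 12 higher and 2 lower. VIM (vimentin) stood at 195, 183 and 1101 FPKM and the neurofilament genes NEFM and NEFL at 6.06, 17.1 and 133 and at 2.16, 4.75 and 43.6 FPKM, while DES (desmin) stood at 138, 157 and 19.6 FPKM. Tubulins and microtubule-associated proteins had 13 of 57 higher, or 22.8%, 1 lower and a median log2 ratio of 0.64. TUBA1A, an alpha tubulin of neurons, stood at 378, 402 and 2692 FPKM, MAP1B, which stabilises axonal microtubules, at 17.3, 19.7 and 207 FPKM and GAP43, a growth cone protein, at 17.03, 29.3 and 292 FPKM. TUBA4A was the lower member, at 36.3, 10.6 and 2.68 FPKM. The contractile gene MYL9, a myosin light chain of smooth muscle, stood at 119, 309.8 and 6.47 FPKM and CNN1 (calponin 1) at 72.5, 107 and 0.23 FPKM, whereas MYL6, the non-muscle light chain, stood at 761, 836 and 1994 FPKM.

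Lipid and retinoid binding proteins went both ways, with 5 of 29 higher and 6 lower. CRABP1, which binds retinoic acid, stood at 52.6, 37.3 and 809 FPKM. The apolipoproteins APOE and APOA1 were lower, at 729, 202 and 33.4 and at 41.8, 2.33 and 1.38 FPKM. Feedback regulators of kinase signalling had 11 of 50 lower, 3 higher and a median of -0.60, and against haploid ESCs 6 were lower and 3 higher. The phosphatases DUSP2 and DUSP5 stood at 31.3, 2.76 and 0.44 and at 46.2, 19.1 and 5.1 FPKM, and SPRY2, a feedback inhibitor of FGF signalling, at 39.7, 64.04 and 53.6 FPKM. Histone genes had 4 of 37 higher, none lower and a median of 0.60, among them HIST1H2BH at 3.42, 4.59 and 29.7 FPKM. Many histone transcripts lack a poly(A) tail, and the labels do not say how RNA was selected before sequencing. Genes of synaptic vesicles and exocytosis had 6 of 67 higher and 2 lower, with a median of 0.07, and with TMM scaling 2 were higher and 6 lower, with a median of -0.08. SCG2, a granin of secretory vesicles, stood at 0.07, 0.07 and 19.9 FPKM, and STXBP2, the partner of syntaxins in non-neuronal secretion, at 36.2, 17.96 and 0.28 FPKM.

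Of the 15 genes with the largest gain in FPKM, TMSB4X, an actin binding thymosin, stood at 2895, 3729.7 and 10455 FPKM. Among the 15 with the largest loss, HMGA1, a chromatin protein of dividing stem cells, stood at 1165, 824 and 109 FPKM and the interferon induced gene IFITM1 at 959, 459 and 38.4 FPKM. 130 rows of the deposited table share a symbol with another row, and no single value of those rows is given here. They were not left out of the class and list counts, medians and sums, the muscle list among them.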
